A study of Mus musculus with 4 samples.

Results

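Platelet-derived growth factor (PDGF) ligands and receptors were followed on 4 expression arrays of cultured mouse palatal mesenchymal cells. The set consists of 7 genes, namely the ligand genes Pdgfa, Pdgfb, Pdgfc and Pdgfd, the receptor genes Pdgfra and Pdgfrb, and the receptor-like gene Pdgfrl. It was taken as every probe set whose only gene symbol in the platform annotation is one of these, which gave 15 of 34945 probe sets and 7 of 18193 genes. All 7 genes had at least 1 probe set past the filter on dim signals, and 2 of the 15 probe sets, both of Pdgfd, lay below it.

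The cells came from outbred wild-type embryos and were grown as primary cultures from embryonic day 14, before the palatal shelves have joined, and each condition was 1 culture on 1 array. The untreated culture received nothing. A culture was stimulated with TGF-beta2 for 120 minutes, and in the others the same stimulation followed 60 minutes with SB431542, an inhibitor of the TGF-beta type I receptor kinase, or with 5Z-7-Oxozeaenol (oxozeaenol below), an inhibitor of the Tak1 kinase. No culture received an inhibitor without TGF-beta2, so an effect of either compound on its own cannot be told apart from its effect on the TGF-beta2 response. With 1 array a group there is no spread between replicates, no test was run and every difference below is between 2 single arrays.

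PDGF ligands are dimers that bring together 2 receptor chains on the cell surface and switch on their tyrosine kinase. The alpha receptor binds A, B and C chains, and the beta receptor binds B and D chains. C and D chains are secreted in a latent form and are activated by proteolysis. In the developing face, epithelium supplies A and C chains to neural crest mesenchyme that carries the alpha receptor, and mice lacking Pdgfc or the alpha receptor in neural crest have cleft palate. B chains from endothelium recruit pericytes, which carry the beta receptor.

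The deposited values are linear signals that had been brought to a common level, with array medians between 66.3 and 72.7. Differences are given as log2(signal + 21.7), where 21.7 is the 25th percentile of all values, and folds come from the same scale. A gene is represented by its brightest probe set, and a difference is called when it is at least 2-fold. Signals of different probe sets depend on their probes, so no difference in transcript level is read from them, and a probe set is called bright or dim only by its signal. Of all 18193 genes, 11744 passed the filter. Of 10 palatal mesenchyme markers, 8 passed, while Osr2 and Tbx22 did not, with signals of at most 30.4 and 28.5. All 8 fibroblast markers and all 10 macrophage markers passed, so the cultures held macrophage transcripts as well. Of the rest, 8 of 10 epithelial, 6 of 8 pericyte and 2 of 10 endothelial markers passed. Epithelial markers passed as often as palatal ones, so these counts do not check the label of the cells. The arrays measure RNA from whole cultures, so fewer cells of a type and less RNA per cell cannot be told apart.

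With TGF-beta2, Pdgfb was 2.19-fold higher than in the untreated culture and Pdgfra was 2.12-fold lower, while the other 5 members lay within 2-fold. These are 2 of 7 members called, against 1.04% of all 11744 genes measured. Among the members within 2-fold, Pdgfc was 1.80-fold and Pdgfa 1.66-fold higher, Pdgfrb and Pdgfrl were 1.24-fold and 1.11-fold higher, and Pdgfd was level at -0.00 on the log2 scale. The median log2 difference of the members was 0.31, and that of all genes was -0.03. The middle 95% of all genes lay between -0.58 and 0.64, so Pdgfa, Pdgfb, Pdgfc and Pdgfra were outside that range. Probe sets of the same gene give a measure of disagreement between probe sets on the same arrays. It does not hold the variation between cultures or between arrays. Over 5121 genes with at least 2 probe sets past the filter, the log2 differences of the brightest and the next brightest were apart by a median of 0.19, and by 0.73 at the 95th percentile.

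**Figure D1:**
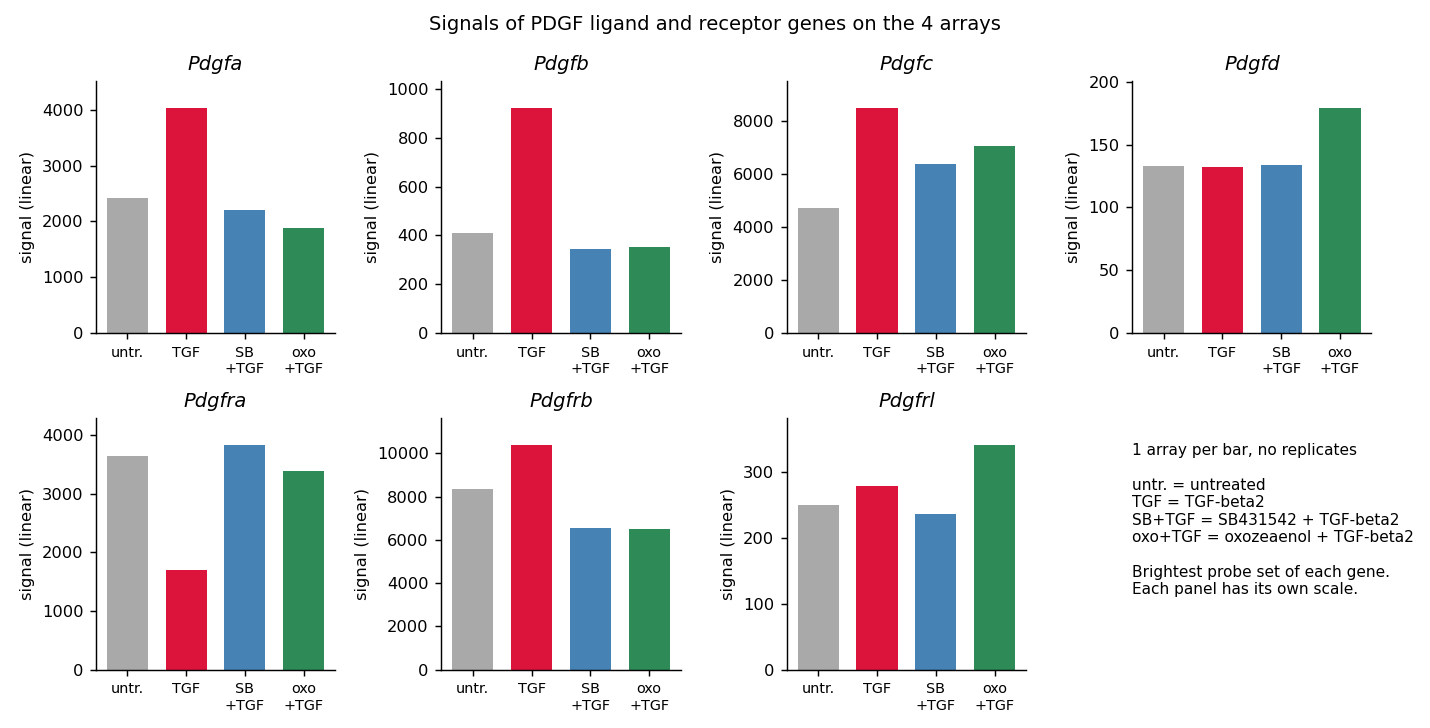
Linear signal of the brightest probe set of each PDGF gene on each of the 4 arrays, with 1 array per bar, no error bars and a separate scale in each panel. Pdgfb read 921 with TGF-beta2 and between 342 and 409 on the other arrays, and Pdgfra read 1704 with TGF-beta2 and between 3386 and 3835 on the others.

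Pdgfb encodes the B chain, which binds both receptors. Its brightest probe set read 409 (untreated), 921 (TGF-beta2), 342 (SB431542) and 351 (oxozeaenol). The TGF-beta2 array was the high one, and the other 3 lay within 1.18-fold of each other. With SB431542 the signal was 2.59-fold lower than with TGF-beta2 alone, and with oxozeaenol 2.53-fold lower. The TGF-beta2 array enters each of these comparisons, so they are not independent of each other. Pdgfb on that array was 2.19-fold above the highest of the other 3 arrays, and 22 of 11744 genes (0.187%) were at least as far above theirs.

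The second probe set of Pdgfb was much dimmer and showed a smaller difference. It read 80.0 (untreated), 104 (TGF-beta2), 90.4 (SB431542) and 74.0 (oxozeaenol), again highest with TGF-beta2. Its log2 difference with TGF-beta2 was 0.31, against 1.13 for the brighter one, although the platform annotation gives both the same target transcript. A gap of 0.82 between probe sets was reached by 3.48% of the 5121 genes. With the mean of both probe sets the difference was 0.72 on the log2 scale and below the 2-fold rule.

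Endothelium and macrophages are usual sources of B chains, so their markers are given beside Pdgfb. Of 10 endothelial markers, 8 were below the filter, including Pecam1, Cdh5, Tek and Tie1, whose signal was at most 2.56. The summed endothelial signal was 623 (untreated), 573 (TGF-beta2), 771 (SB431542) and 619 (oxozeaenol), mostly from Kdr and Egfl7, the 2 past the filter. Summed macrophage signals were 79588, 75161, 75852 and 65015 in the same order. None of these 10 markers was at least 2-fold apart between TGF-beta2 and untreated, where 1.04% of all genes were called. The part of either cell type in the Pdgfb difference was not tested.

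Pdgfa encodes the A chain, a ligand of the alpha receptor. Its brightest probe set read 2421 (untreated), 4031 (TGF-beta2), 2208 (SB431542) and 1885 (oxozeaenol). The other probe set read 2169, 3627, 2110 and 1861 in the same order. Both were highest with TGF-beta2 and lowest with oxozeaenol, and their log2 differences with TGF-beta2 were 0.73 and 0.74, a gap of 0.01. Of the 3 ligands with 2 probe sets past the filter, Pdgfa had the smallest gap in this comparison. The platform annotation gives both probe sets the same target transcript. Against TGF-beta2 alone the brightest was 1.82-fold lower with SB431542 and 2.13-fold lower with oxozeaenol, where it passed the 2-fold rule. The other probe set was 1.71-fold and 1.94-fold lower and passed it in neither comparison. Against untreated the brightest was 1.28-fold lower with oxozeaenol and 1.10-fold lower with SB431542. Epithelium is a usual source of A chains, and the summed signal of 10 epithelial markers was 2296 (untreated), 2155 (TGF-beta2), 2168 (SB431542) and 6280 (oxozeaenol). Most of the rise with oxozeaenol came from Krt14, from 141 untreated to 2218, and Krt5, from 195 to 1383. Epcam (369 and 366) and Cldn4 (342 and 336) did not rise, and the remaining markers rose by less. The part of epithelium in the Pdgfa differences was not tested.

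The RefSeq promoter table for build GRCm38.p6 held 4 of the 7 members, and the upstream windows of Pdgfa, Pdgfc and Pdgfra are shown because these genes differed most between the arrays among the 4. Each window covers the 250 bases before an annotated start, 5′ to 3′ on the gene's strand. Capitals mark matches on either strand to GGGCGG, the core bound by Sp1, or to CAGAC, a Smad-binding core. GCGNGGGCG, an Egr site, and TGANTCA, an AP-1 site, were searched too and had no match in these windows, so no overlap with GGGCGG arose. Pdgfa has 2 annotated starts, both on the minus strand of chromosome 5, with windows at chr5:138994945-138995194 and chr5:138994282-138994531.
Pdgfa, upstream start: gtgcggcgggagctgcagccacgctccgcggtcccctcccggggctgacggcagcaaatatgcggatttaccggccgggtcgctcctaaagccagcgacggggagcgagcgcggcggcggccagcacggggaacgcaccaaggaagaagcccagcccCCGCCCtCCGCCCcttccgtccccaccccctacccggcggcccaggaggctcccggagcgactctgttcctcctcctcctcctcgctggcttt
Pdgfa, downstream start: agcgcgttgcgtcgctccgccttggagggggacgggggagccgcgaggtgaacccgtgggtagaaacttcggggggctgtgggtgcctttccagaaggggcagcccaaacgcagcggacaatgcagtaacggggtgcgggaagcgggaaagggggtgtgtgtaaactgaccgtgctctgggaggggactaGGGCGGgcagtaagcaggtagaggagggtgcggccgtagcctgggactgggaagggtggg
The window of the upstream start holds GGGCGG on the opposite strand at 93 and at 86 bases before the start, and that of the downstream start holds it once, 60 bases before. Of 32817 promoter windows of the same length, 32.7% hold GGGCGG, 42.2% CAGAC, 4.70% the Egr site and 6.75% the AP-1 site. The window of Pdgfd, the member not shown, was searched too. It holds CAGAC on the opposite strand 135 bases before the start and again 5 bases before it, though Pdgfd was level with TGF-beta2. A match is a string of letters and does not show binding.

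Pdgfc encodes the C chain, the other main ligand of the alpha receptor in the palate. Its brightest probe set read 4704 (untreated), 8473 (TGF-beta2), 6351 (SB431542) and 7041 (oxozeaenol). All 3 stimulated arrays were above the untreated one, by 1.80-fold, 1.35-fold and 1.49-fold, and none by 2-fold. The second probe set, which is also bright and has the same annotated target transcript, read 4447, 4360, 3180 and 3719 in the same order and was highest without treatment. On the log2 scale the TGF-beta2 difference was 0.85 by the former and -0.03 by the latter. A gap of that size, 0.87, was found in 2.93% of the 5121 genes. The direction of Pdgfc against untreated therefore differed between its probe sets on all 3 stimulated arrays. Against TGF-beta2 alone the probe sets were close to each other, at -0.41 and -0.45 with SB431542 and at -0.27 and -0.23 with oxozeaenol. The window before the start of Pdgfc, at chr3:81036166-81036415 on the plus strand, holds CAGAC 242 and 23 bases before the start.
Pdgfc: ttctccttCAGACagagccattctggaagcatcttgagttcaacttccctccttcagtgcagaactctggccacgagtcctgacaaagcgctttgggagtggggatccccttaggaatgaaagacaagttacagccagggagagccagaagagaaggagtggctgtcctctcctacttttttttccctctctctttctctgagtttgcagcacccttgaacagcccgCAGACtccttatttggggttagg

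Pdgfd encodes the D chain, a ligand of the beta receptor, and was dim. The probe set past the filter read 133 (untreated), 132 (TGF-beta2), 134 (SB431542) and 179 (oxozeaenol). The first 3 arrays were level and the oxozeaenol array was 1.30-fold above both untreated and TGF-beta2 alone. The 2 probe sets below the filter ranged from 22.2 to 45.7 and from 3.24 to 23.1, near or below the pseudocount, and both were highest with oxozeaenol too. The summed epithelial marker signal was highest on the same array, mostly through Krt14 and Krt5, and its part in this difference was not tested.

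Pdgfra, the alpha receptor, was the 1 member lower with TGF-beta2 by the 2-fold rule. Its brightest probe set read 3643 (untreated), 1704 (TGF-beta2), 3835 (SB431542) and 3386 (oxozeaenol). The TGF-beta2 array was the low one, and the other 3 lay within 1.13-fold of each other. The signal was 2.24-fold higher with SB431542 than with TGF-beta2 alone and 1.98-fold higher with oxozeaenol, just under the rule. Pdgfra on the TGF-beta2 array was 1.98-fold below the lowest of the other arrays, and 20 of 11744 genes (0.170%) were at least as far below theirs.

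The remaining 2 probe sets of Pdgfra did not show this difference. They were dimmer, at 243, 257, 266 and 261 for the first and 158, 150, 142 and 115 for the second, in the order untreated, TGF-beta2, SB431542 and oxozeaenol. Their log2 differences with TGF-beta2 were 0.07 and -0.06, against -1.09 for the brightest. The gap of 1.16 between the 2 brightest probe sets was matched or exceeded in 0.840% of the 5121 genes. The dimmest has the same annotated target transcript as the brightest. With the mean of the 3 probe sets the difference was -0.36 with TGF-beta2 and 0.38 with SB431542 over TGF-beta2, and neither was called. The lower level of Pdgfra with TGF-beta2 thus rests on 1 probe set and 1 array.

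Transcripts of palatal mesenchyme regulators are given beside Pdgfra, which marks the same cells. Their summed signal over 10 genes was 15269 (untreated), 11468 (TGF-beta2), 17900 (SB431542) and 17201 (oxozeaenol), lowest on the array where Pdgfra was lowest. Most of it came from Prrx1, at 10097, 7983, 11559 and 11388 in the same order. Of the 8 regulators past the filter, Osr1, an odd-skipped transcription factor gene, was at least 2-fold lower with TGF-beta2 and 7 lay within 2-fold. Among all 11744 genes, 43 were called lower. The median of the 8 was -0.36, beside -0.03 for all genes. The summed signal of 8 fibroblast markers was 106709, 115998, 121002 and 112669 in the same order, so the sum was not lowest with TGF-beta2. Among these markers Lum (4477, 3850, 4680 and 5301) and Dcn (6992, 6959, 7604 and 7714) were lowest there, and the rest were not. The part of the palatal regulators or the fibroblast markers in the Pdgfra difference was not tested. The window before the annotated start of Pdgfra, at chr5:75152001-75152250 on the plus strand, holds CAGAC once, on the opposite strand 146 bases before the start, and none of the other motifs.
Pdgfra: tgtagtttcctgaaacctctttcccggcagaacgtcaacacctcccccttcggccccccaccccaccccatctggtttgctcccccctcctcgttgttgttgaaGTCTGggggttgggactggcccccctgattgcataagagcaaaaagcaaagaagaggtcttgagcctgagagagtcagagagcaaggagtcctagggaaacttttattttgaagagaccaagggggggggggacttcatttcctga

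**Figure D2:**
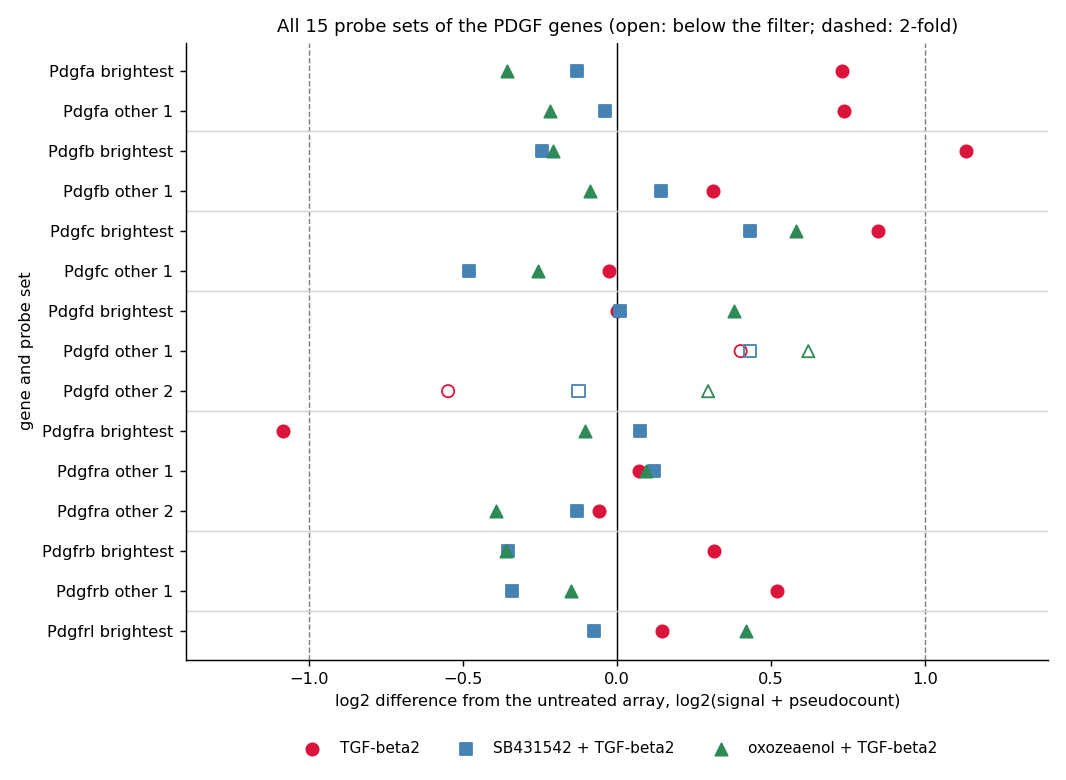
Log2 difference from the untreated array for all 15 probe sets of the 7 genes, with 1 point for each stimulated array; filled points passed the filter, open points did not, and dashed lines mark 2-fold. The probe sets of Pdgfa and Pdgfrb lie together with TGF-beta2 on the right, while those of Pdgfra lie apart with TGF-beta2, at -1.09, 0.07 and -0.06.

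Pdgfrb, the beta receptor, was highest with TGF-beta2 and lower with both inhibitors by both of its probe sets. The brightest read 8363 (untreated), 10391 (TGF-beta2), 6529 (SB431542) and 6510 (oxozeaenol). The other read 1294, 1865, 1017 and 1164 in the same order. Against TGF-beta2 alone the brightest was 1.59-fold lower with either inhibitor, and the log2 differences of the second were -0.86 and -0.67. Neither probe set reached 2-fold in these comparisons. Both inhibitor arrays were also below untreated, by 1.28-fold each for the brightest. By their brightest probe sets alone, the receptors differed in opposite directions with TGF-beta2, with Pdgfra at -1.09 and Pdgfrb at 0.31. The dimmer probe sets of Pdgfra stood at 0.07 and -0.06, and 10.1% of all genes were at least as high as Pdgfrb.

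Pericyte and smooth muscle markers are given beside Pdgfrb. The proteoglycan gene Cspg4, a pericyte marker also known as NG2, read 1121 (untreated), 1658 (TGF-beta2), 895 (SB431542) and 589 (oxozeaenol). Mcam, an adhesion molecule of the vessel wall, read 976, 1258, 733 and 669. Both were highest with TGF-beta2, but other markers were not. Notch3, a receptor of vascular smooth muscle, was lowest there, at 233, 186, 216 and 209, the intermediate filament gene Des read 273, 269, 289 and 80.2, and the smooth muscle myosin gene Myh11 read 72.6, 82.5, 70.3 and 102. The summed signal of the 8 markers, most of it from Cspg4 and Mcam, was 2816, 3651, 2415 and 1863 in the same order. Kcnj8 and Abcc9, subunits of a potassium channel of pericytes, were below the filter on average, and Rgs5 read between 133 and 151. None of the 6 pericyte genes past the filter was at least 2-fold apart with TGF-beta2, where 1.04% of all genes were called. Their part in the Pdgfrb difference was not tested.

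Pdgfrl encodes a protein that resembles the extracellular part of the PDGF receptors and has no kinase. Its 1 probe set read 250 (untreated), 278 (TGF-beta2), 236 (SB431542) and 341 (oxozeaenol). The oxozeaenol array was the highest, 1.34-fold above untreated and 1.41-fold above SB431542. The order of the remaining 3 arrays spans log2 differences of at most 0.22 and has no replicate check.

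With SB431542 and TGF-beta2 over TGF-beta2 alone, 1 member was called lower, Pdgfb, and 1 higher, Pdgfra, against 1.80% of all genes called in either direction. The members' median was -0.41 and that of all genes 0.03. With oxozeaenol over TGF-beta2 alone, 2 members were called lower, Pdgfb and Pdgfa, and none higher, against 3.99% of all genes in either direction and 2.17% lower. The members' median was -0.27 and that of all genes 0.05. In both comparisons Pdgfa, Pdgfb, Pdgfc and Pdgfrb were lower than with TGF-beta2 alone and Pdgfra was higher. On the TGF-beta2 array 4 of 7 members were above each of the other 3 arrays, against 19.7% of all genes, and 2 of 7 were below each of them, against 30.7%. The latter were Pdgfra and, by 0.00 on the log2 scale, Pdgfd. Of the former, Pdgfc was above by its brightest probe set only, as its second read 4360 with TGF-beta2 and 4447 untreated. Pdgfra likewise was below by its brightest probe set only.

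**Figure D3:**
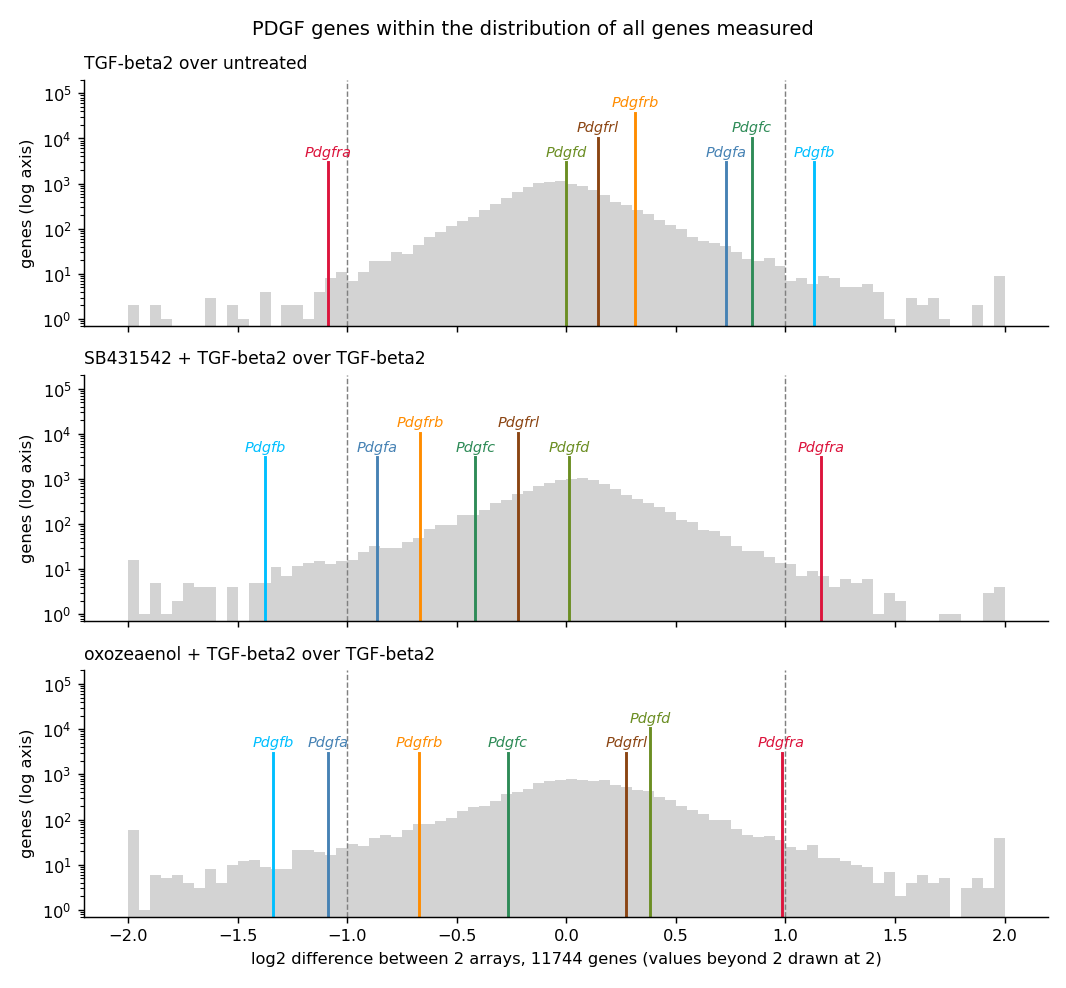
Histograms of the log2 difference of 11744 genes in 3 comparisons, with a log count axis, dashed lines at 2-fold and coloured lines at the 7 PDGF genes. Pdgfb lies at 1.13 and Pdgfra at -1.09 with TGF-beta2, and at -1.37 and 1.16 with SB431542 over TGF-beta2; the 3 comparisons share the TGF-beta2 array.

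Neither inhibitor culture differed from the untreated culture by 2-fold in any of the 7 members. The share of all genes called was 0.851% with SB431542 over untreated and 3.00% with oxozeaenol over untreated, so few calls among 7 genes would be found at the background rate. The largest member difference from untreated was that of Pdgfc, at 0.43 and 0.58 on the log2 scale, and its second probe set was lower instead, at -0.48 and -0.26. Between the inhibitors no member was 2-fold apart, with 2.81% of all genes called. Pdgfrl differed most there, at 0.49, and Pdgfd was next, at 0.37.

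The genes whose pattern was closest to a member were found by the root mean square difference of log2 values, centred on their mean over the 4 arrays, among 11743 other genes. For Pdgfra these were 1700027J07Rik (0.06), Rusc1 (0.07) and Aplf (0.08), and 4 genes lay within 0.1. Rusc1 read 1164 (untreated), 614 (TGF-beta2), 1275 (SB431542) and 1197 (oxozeaenol), low with TGF-beta2 as Pdgfra was, while 1700027J07Rik and Aplf were under the filter level of 66.1 on that array. For Pdgfb they were Btbd11 (0.09), Fgl2 (0.10) and Arhgef40 (0.11), and 1 gene lay within 0.1. Btbd11 read 427, 807, 320 and 317 in the same order, high with TGF-beta2. With 4 arrays many genes can share a pattern, and nothing further is read from the likeness.

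The rest of the PDGF pathway was followed in 5 lists. Of 10 genes of ligand processing and co-receptors, 9 passed the filter. None was 2-fold apart with TGF-beta2, where 1.04% of all genes were called. Their median was 0.27, beside -0.03 for all genes. Furin, a protease that cleaves A and B chain precursors, read 899 (untreated), 1319 (TGF-beta2), 932 (SB431542) and 888 (oxozeaenol). It was highest with TGF-beta2, as Pdgfa and Pdgfb were. Plau, the urokinase that can activate the D chain, read 672, 1040, 928 and 318 in the same order, and Plat, the tissue plasminogen activator that activates the C chain, read 912, 684, 958 and 704. Plau was the 1 gene of this list at least 2-fold apart in any comparison, 3.13-fold lower with oxozeaenol than with TGF-beta2 alone and 2.04-fold lower than untreated. Of all genes, 2.17% and 1.51% were called lower in these oxozeaenol comparisons. With SB431542 the log2 difference of Plau from TGF-beta2 alone was -0.16. Another probe set of Plau past the filter did not share the direction in that comparison or with TGF-beta2 over untreated. It did share the lower level with oxozeaenol against both TGF-beta2 alone and untreated.

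Adaptors and proximal effectors of the receptors, 24 of 29 on the array and past the filter, had a median of 0.01 with TGF-beta2. All 24 were within 2-fold, where 1.04% of all genes were called. With SB431542 over TGF-beta2 all 24 were within 2-fold again, where 1.80% were called. With oxozeaenol Pik3cb, a catalytic subunit of PI3-kinase, was 2.02-fold lower than with TGF-beta2 alone, from 285 to 130. The other 23 were within 2-fold, where 3.99% of all genes were called. Few calls among 24 genes would be found at these background rates. Gab1, a docking protein, read 339 (untreated), 320.5 (TGF-beta2), 274 (SB431542) and 570 (oxozeaenol). The 2 inhibitor arrays were 1.00 apart on the log2 scale, at the 2-fold rule, where 2.81% of all genes were called. Of 11 measured negative regulators, none was 2-fold apart in any of the 6 comparisons, in which 0.851% to 3.99% of all genes were called. Their median against untreated was -0.43 with oxozeaenol, beside 0.03 for all genes. Those with the widest range were Ptprj, a receptor phosphatase, at 343, 227, 338 and 194 in the same order of arrays, and Cblb, a ubiquitin ligase, at 996, 836, 751 and 596. The lowest signal of both was on the oxozeaenol array.

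The remaining pathway list holds early genes that PDGF induces in fibroblasts. Like the other lists, it was written with earlier results of these data known, so its counts beside all genes are no test. Of 15 measured, Junb, Egr1, Csrnp1 and Ier2 were called higher with TGF-beta2 and none lower, with a median of 0.26, against 0.673% of all genes called higher. Csrnp1, a nuclear protein gene known as a PDGF target, read 249 (untreated), 563 (TGF-beta2), 215 (SB431542) and 293 (oxozeaenol). With SB431542 over TGF-beta2 Junb and Csrnp1 were lower and 13 were within 2-fold, against 1.18% of all genes called lower. With oxozeaenol over TGF-beta2 7 of 15 were lower, namely Ccl2, Fos, Myc, Egr1, Junb, Ier2 and Ier3, against 2.17% of all genes. Of these, 5 were also at least 2-fold below untreated, which Junb and Ier2 were not, against 1.51% of all genes lower with oxozeaenol than untreated. Arid5b, another transcript known as a PDGF target, went the other way with TGF-beta2, at 2449, 1721, 3244 and 2767, and lay within 2-fold throughout. These genes answer to many growth factors, and no culture was given PDGF, so their levels do not measure PDGF signalling here.

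**Figure D4:**
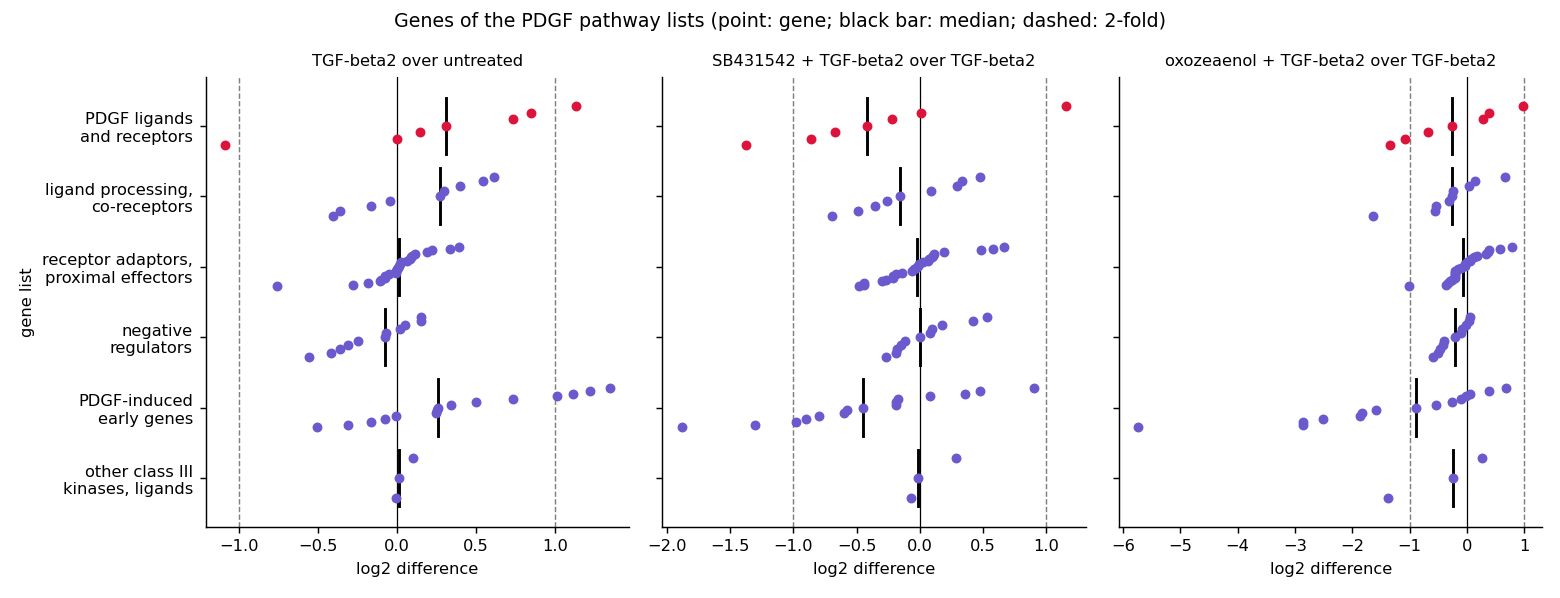
Log2 differences of the PDGF ligands and receptors and of 5 pathway lists in 3 comparisons, with 1 point per gene past the filter, a black bar at the median of each list and dashed lines at 2-fold; the panels have separate axes. With oxozeaenol over TGF-beta2 the adaptors lie between -1.01 (Pik3cb) and 0.79 (Gab1), and the early genes reach -5.73, the value of Egr1.

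Of the other receptors of the same kinase class and their ligands, 3 of 7 genes were measured past the filter. Csf1, the macrophage growth factor, read 8316 (untreated), 8403 (TGF-beta2), 8322 (SB431542) and 3206 (oxozeaenol). It was thus level on 3 arrays and at least 2-fold lower with oxozeaenol. Of all genes, 2.17% were called lower with oxozeaenol than with TGF-beta2 alone, and 1.51% lower than untreated. The Csf1 receptor gene Csf1r read between 7343 and 8693, and Kitl, the ligand of the Kit receptor, between 401 and 531. Neither showed the high or low TGF-beta2 signal of Pdgfb or Pdgfra, and Kit itself was below the filter.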

How the data were processed

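RNA of 4 cultures, 500 ng each, was labelled and hybridised to Affymetrix 3′ arrays, 1 array per culture, per the labels' protocols. The authors deposited linear-scale intensities of 45101 probe sets. GCOS is named in the submitters' processing notes, with version, summary algorithm and settings not given in the sources used here. With the lowest and highest 2% set aside, every array had a mean of 500.0, so the authors had scaled the arrays, which assumes an equal average transcript level.

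Here, 64 control probe sets were left out and 34945 with 1 gene symbol were used. Signals became log2(value + 21.7). Probe sets with a mean log2 value at or above the median of all, a signal of 66.1, were kept, which left 20064 probe sets of 11744 genes, and the brightest stood for its gene. The 6 comparisons used the 2-fold rule, with no test. The calling step was run on simulated data with planted changes larger than 2-fold in genes of higher signal. That checks the code and not the calls on these arrays. Python 3.11.15, numpy 2.4.6, pandas 2.3.3 and matplotlib 3.10.9 were used. The members and gene lists were chosen with earlier results of these data known. Named genes were all members, genes of the pathway lists at least 2-fold apart or else the 2 with the widest range, the 3 genes most alike in pattern, and cell type markers where they bear on a member. Beyond these, Furin, Plat, Arid5b, Csf1r and Kitl were named as examples, and the individual markers printed were picked, after their values had been seen. Alternatives changed the pseudocount, filter, scaling and choice of probe set.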

Additional observations from a re-analysis of the deposited data

How the results depend on the processing

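The number of members at least 2-fold apart did not move under 7 of the 8 alternatives, which were pseudocounts at the 10th percentile and at the median, no pseudocount (added after seeing the data), no filter, the stricter filter (132), median centring and quantile normalization. With the mean of all kept probe sets in place of the brightest, it went from 2 to 0 with TGF-beta2 over untreated, from 2 to 0 with SB431542 over TGF-beta2 and from 2 to 1 with oxozeaenol over TGF-beta2, where Pdgfa alone was called (-1.02). In that setting Pdgfb stood at 0.72, -0.77 and -0.87 and Pdgfra at -0.36, 0.38 and 0.22 in the same order, because their dimmer probe sets differed less. Of 42 member differences, 6 changed sign under some alternative, none of them called. Median centring moved the median of all genes to -0.11 for SB431542 over untreated. No paired analysis was possible because each group holds 1 array. For the same reason no array could be left out. Signals near the pseudocount, as for 2 probe sets of Pdgfd, carry little information on folds.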
